A study of Homo sapiens with 6 samples.

Results

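The 59 genes described here are the amino acid transporters of 7 solute carrier families, SLC1, SLC3, SLC6, SLC7, SLC36, SLC38 and SLC43, measured in HaCaT cells with and without interferon beta (IFN-beta). They are the rows of the deposited table, out of 60671 genes, whose symbol is one of those family names followed by A and a number. Membership was set by symbol and not by a cut on any measured value. The members were, however, chosen with earlier results of these data known. A value above 0 was found for 47 of the 59 in at least 1 library, and 28 reached a mean of 0.5 FPKM over all libraries and were tested. FPKM is the number of sequenced fragments scaled by the gene's length and the library's depth, so levels can be compared between genes. The members nearest to that minimum were SLC7A7, inside it at a mean of 0.93 FPKM, and SLC3A1, outside it at 0.49 FPKM.

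HaCaT is an established line of immortalised human keratinocytes, labelled as wild type. One group of 3 libraries came from cells held for 24 h in serum-free high-glucose DMEM with IFN-beta at 160 ng/mL, a type I interferon. The control group, also 3 libraries, had the same medium and time without IFN-beta. The line is a single cell line grown without other cell types, and the labels give the batch of each library as unknown.

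Amino acids cross membranes through carriers that differ in what drives them. SLC1, SLC6 and SLC38 carriers mostly use the sodium gradient to load cells, SLC36 carriers use protons and act in part at the lysosome, and SLC43 carriers let large neutral amino acids pass by facilitated diffusion. Most SLC7 light chains are exchangers that reach the plasma membrane only when bound to the glycoprotein heavy chain SLC3A2 (4F2hc, also CD98) or SLC3A1. In keratinocytes and other dividing cells, SLC7A5 with SLC3A2 imports leucine and other essential amino acids that feed mTORC1, SLC1A5 and the SLC38 carriers supply glutamine, and SLC7A11 imports cystine for glutathione. SLC6 also holds carriers of amino acid derivatives and of neurotransmitters, and SLC43A3 is known as a carrier of purine nucleobases, so the symbol rule takes in some genes that do not carry amino acids.

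Promoter sequence is shown for 3 members that the results turn on: SLC43A2, which had the largest rise among the 28 tested members, SLC38A5, which had the next largest, and SLC7A5, the most abundant member, which fell. The sequences are RefSeq's, on build GRCh38.p14, and all 3 genes lie on the minus strand. Each runs 5' to 3' up to the gene's start, and capitals mark a CACGTG E-box, the motif bound by the MYC and TFE families of factors. For SLC43A2 the bases that lie inside the gene's span in the deposited table are left out.

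SLC43A2, chr17:1628887-1629084: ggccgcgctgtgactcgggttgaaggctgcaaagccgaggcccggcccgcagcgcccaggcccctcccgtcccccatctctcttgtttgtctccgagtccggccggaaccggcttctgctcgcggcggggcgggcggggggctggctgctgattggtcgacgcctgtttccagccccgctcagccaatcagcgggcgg

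SLC38A5, chrX:48470261-48470510: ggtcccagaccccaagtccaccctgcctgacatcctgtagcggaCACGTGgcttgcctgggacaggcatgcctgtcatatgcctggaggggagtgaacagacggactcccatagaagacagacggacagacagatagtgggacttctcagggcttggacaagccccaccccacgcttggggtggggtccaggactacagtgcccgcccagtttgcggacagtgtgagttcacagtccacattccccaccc

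SLC7A5, chr16:87869508-87869757: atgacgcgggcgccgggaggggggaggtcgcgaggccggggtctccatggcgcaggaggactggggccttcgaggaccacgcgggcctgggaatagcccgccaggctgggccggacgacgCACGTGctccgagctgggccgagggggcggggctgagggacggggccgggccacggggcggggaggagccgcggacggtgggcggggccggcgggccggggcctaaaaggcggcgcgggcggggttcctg

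The 250 bases before the start were searched on both strands for 5 motifs in the 44 members with a RefSeq promoter, against 18116 genes searched the same way. The 15 members without one, SLC7A11 and SLC43A3 among them, were not searched. The core of the interferon-stimulated response element, GAAA and GAAA with any 2 bases between them, lay in 2.81% of all genes and in 2 members, SLC38A4, which was not tested, and SLC7A7, which did not pass the test described below. The RefSeq starts of these 2 lie 6411 and 10029 bases from the gene's 5' end in the deposited table, so the windows may not be those of the transcripts measured. The gamma-activated site TTCNNNGAA, found in 6.25% of all genes, and the C/EBP-ATF element TGATGNAA, found in 2.56%, were in none of the 44. For motifs this rare, absence from 44 windows says little, and sites outside the window were not searched. The antioxidant response element TGACNNNGC, found in 11.7% of all genes, was in SLC1A3, SLC7A1, SLC7A6 and SLC7A7. The E-box, found in 7.41%, was in SLC1A7, SLC38A5, SLC43A1, SLC6A16 and SLC7A5. It begins 206 bases before the start of SLC38A5 and 130 bases before that of SLC7A5, which changed in opposite directions, and the window of SLC43A2 holds none of the 5 motifs. That core was in 0 of the 9 members with a promoter that rose and in 0 of the 3 that fell. These matches describe letters in a window and not binding.

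The libraries held 25832158 to 30594527 reads, recovered from the steps of the FPKM values, and 103846 to 130825 of these fell in the 59 members. Libraries of the same group correlated at 0.9938 to 0.9951 across genes and libraries of different groups at 0.9732 to 0.9759, with control 3 the least like the others of its group. The chi-square per gene between libraries was 10.2 for control 3 with control 1 and 6.53 with control 2, and 3.01 to 4.02 for the other pairs of the same group. The interferon target MX1 went from 4.57 ± 0.204 FPKM (SD, n = 3) to 680 ± 15.7 FPKM (SD, n = 3). All 9 keratinocyte markers were measured, with a summed level of 3860 to 4180 FPKM in the control libraries and 3910 to 3980 FPKM with IFN-beta. Of these KRT6A, KRT17, TP63, ITGB4 and SFN rose and KRT5 and PERP fell. Markers of other cell types summed to at most 3.13 FPKM per list and library. The 6 fibroblast markers summed to 1.54 to 2.39 FPKM in control and 2.36 to 3.13 FPKM with IFN-beta, with DCN at 0 and COL1A1 the 1 marker tested, which rose. The 3 endothelial markers summed to 0.696 to 0.964 and 2.12 to 2.21 FPKM, almost all from CDH5, which rose. The 4 melanocyte markers summed to 1.41 to 1.43 and 1.44 to 1.87 FPKM with MLANA and TYR at 0, and the 5 immune markers to at most 0.257 FPKM with LYZ at 0. Their part in the results was not tested. The labels do not say that the replicates were separate cultures, so the p-values reflect library-to-library spread that may be technical. In bulk RNA a change in the number of cells in some state and a change in RNA per cell cannot be told apart.

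With IFN-beta, 11 of the 28 tested transporters rose and 4 fell, and without control 3 the numbers were 10 and 5. The risers were SLC43A2, SLC38A5, SLC43A3, SLC6A15, SLC1A3, SLC6A8, SLC38A2, SLC1A5, SLC6A9, SLC36A1 and SLC38A7, and the fallers were SLC6A2, SLC7A5, SLC36A4 and SLC3A2. The changes were small: 1 member, SLC43A2, passed with an estimate above 2-fold. Its log2 change was 0.935 to 1.12 under the alternative settings, which is below 2-fold at its lowest. The median log2 change of the 28 was 0.10, with a range from -0.39 to 1.04. The test was limma on log2(FPKM + 0.5), two-sided, at a Benjamini-Hochberg adjusted p of 0.05 over all 15163 tested genes. The 15 members called were 53.6% of those tested, beside 42.4% of all tested genes. Higher calls were 39.3% of the tested members beside 22.5% of all genes, and lower calls 14.3% beside 19.9%. The median over all genes was 0.01, and 3.3% of all genes passed at 2-fold or more. The groups did not overlap in 17 members (60.7%), beside 54% of all genes. In 13 of them the IFN-beta libraries were the higher, beside 28.6% of all genes, and in 4 the lower, beside 25.4%.

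Of the 15 calls, 8 were kept in the same direction under all 17 alternative settings run, and all 8 were rises: SLC1A3, SLC1A5, SLC38A2, SLC38A5, SLC43A2, SLC43A3, SLC6A8 and SLC6A15. None of the 4 falls was kept throughout. Rises were 73.3% of the member calls, and 85.7% after each library was rescaled to the same sum, which left 12 higher and 2 lower. Under quantile normalization they were 66.7%, with 8 higher and 4 lower. Over all genes, rises were 53.2% of calls, 63.2% after that rescaling and 41.3% after quantile normalization.

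**Figure D1:**
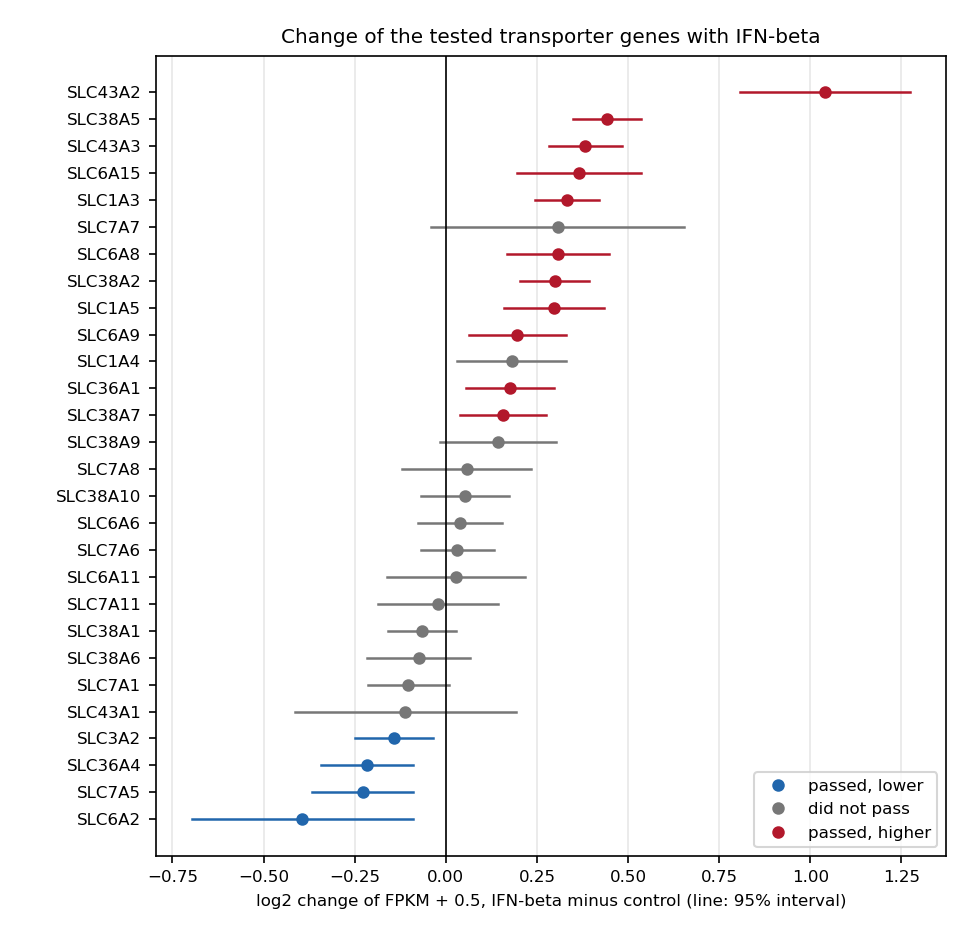
Log2 change of FPKM + 0.5, IFN-beta minus control, for the 28 tested transporters, with the 95% interval of limma's fit as a line (n = 3 libraries per group). Red points passed and were higher, blue points passed and were lower, and grey points did not pass. SLC43A2 at 1.04 stands alone at the top, and the 4 blue points lie between -0.39 and -0.14.

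The 2 most abundant transporters were the subunits of the leucine exchanger, and both fell slightly. SLC7A5 (LAT1, ENSG00000103257) was at 514, 491 and 439 FPKM in control libraries 1 to 3 and at 415, 389 and 427 FPKM in IFN-beta libraries 1 to 3. All 3 IFN-beta values lay below the lowest control value. The mean went from 481 ± 38.5 to 410 ± 19.6 FPKM (SD, n = 3 each), a log2 change of -0.23 ± 0.06 (SE, adjusted p = 0.016, limma). The call was lost without control 2 (adjusted p = 0.0582), without IFN-beta 2 (0.0659), with no filter on level (0.0641) and with limma's variance trend off (0.0543). Its 2 listed pseudogene copies, SLC7A5P1 and SLC7A5P2, were at 0 in the 6 libraries, and how reads shared with them were assigned is not given in the sources used here.

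SLC3A2 (ENSG00000168003), the heavy chain that carries SLC7A5 and other light chains to the membrane, was at 469, 434 and 415 FPKM in control and 391, 396 and 406 FPKM with IFN-beta. The groups were separate by a narrow margin, with the lowest control library close to the highest treated one. Its log2 change was -0.14 ± 0.05 (SE, adjusted p = 0.0394, limma). This call was the least settled of those in the abundant genes. It was lost without control 1 (log2 change -0.09, adjusted p = 0.0827), control 2 (0.0825), IFN-beta 1 (0.12), IFN-beta 2 (0.108) or IFN-beta 3 (0.0656). It was lost as well with no filter (0.111), after rescaling to the same sum (-0.10, 0.148), without the trend (0.101) and when the replicate number was a term of the fit (0.058).

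The other heavy chain, SLC3A1 (rBAT), which pairs with SLC7A9, had a mean of 0.489 FPKM in control and 0.494 FPKM with IFN-beta and was not tested. SLC7A5 and SLC3A2 moved by similar amounts. The ratio of SLC7A5 to SLC3A2 was 1.1, 1.13 and 1.06 in control and 1.06, 0.982 and 1.05 with IFN-beta, with overlapping groups (exact permutation test, two-sided, p = 0.2, adjusted over the 7 ratios computed 0.233). The summed light chains of SLC3A2 stood to SLC3A2 as 1.23 ± 0.0351 in control and 1.18 ± 0.0461 with IFN-beta (SD, n = 3 each, exact permutation p = 0.3, adjusted 0.3). With 3 libraries against 3 the smallest p such a test can give is 0.1.

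Of the 8 SLC7 light chains, 5 were tested, and SLC7A5 was the 1 that passed. SLC7A11 (xCT, ENSG00000151012), the cystine and glutamate exchanger, was at 12.8, 13.7 and 13.8 FPKM in control and at 14.4, 13.3 and 12.0 FPKM with IFN-beta. The treated libraries spanned a wider range than the controls and enclosed them. Its log2 change was -0.02 ± 0.07 with a 95% interval from -0.19 to 0.14 (adjusted p = 0.83, limma), and its sign turned after rescaling to the same sum (0.02) and without IFN-beta 3 (0.04). Part of its exonic length, 9%, overlaps SLC7A11-AS1 on the other strand, which was at 0.166 FPKM in control and 0.264 FPKM with IFN-beta. The use of strand in counting is not given in the sources used here.

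The other light chains did not pass. SLC7A6 (y+LAT2), an exchanger of arginine against glutamine, was at 35.4 ± 1.40 FPKM in control and 36.1 ± 0.674 FPKM with IFN-beta, and 55.6% of its exonic length overlaps other genes on the opposite strand, among them SLC7A6OS. SLC7A8 (LAT2), a neutral exchanger, was at 8.85 ± 0.833 and 9.21 ± 0.383 FPKM. The log2 changes of SLC7A6 and SLC7A8, 0.03 and 0.06, became -0.01 and -0.005 under quantile normalization, and that of SLC7A8 became -0.014 without control 3. SLC7A7 (y+LAT1), at 0.883, 0.708 and 0.727 FPKM in control and 1.33, 0.983 and 0.934 FPKM with IFN-beta, had separate groups but few reads (23 to 49 a library) and did not pass (log2 change 0.31, adjusted p = 0.139, limma).

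Among the 5 cationic SLC7 carriers 1 was tested. SLC7A1 (CAT1), the main arginine and lysine carrier of many cells, was at 112 ± 7.02 FPKM in control and 104 ± 2.05 FPKM with IFN-beta, with overlapping groups. Its log2 change of -0.10 ± 0.05 did not pass (adjusted p = 0.122, limma), while without control 3 it was -0.15 with an adjusted p of 0.00991. SLC7A2 and SLC7A4 stayed at or under 0.0346 FPKM, and SLC7A3 and SLC7A14 were at 0.

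**Figure D2:**
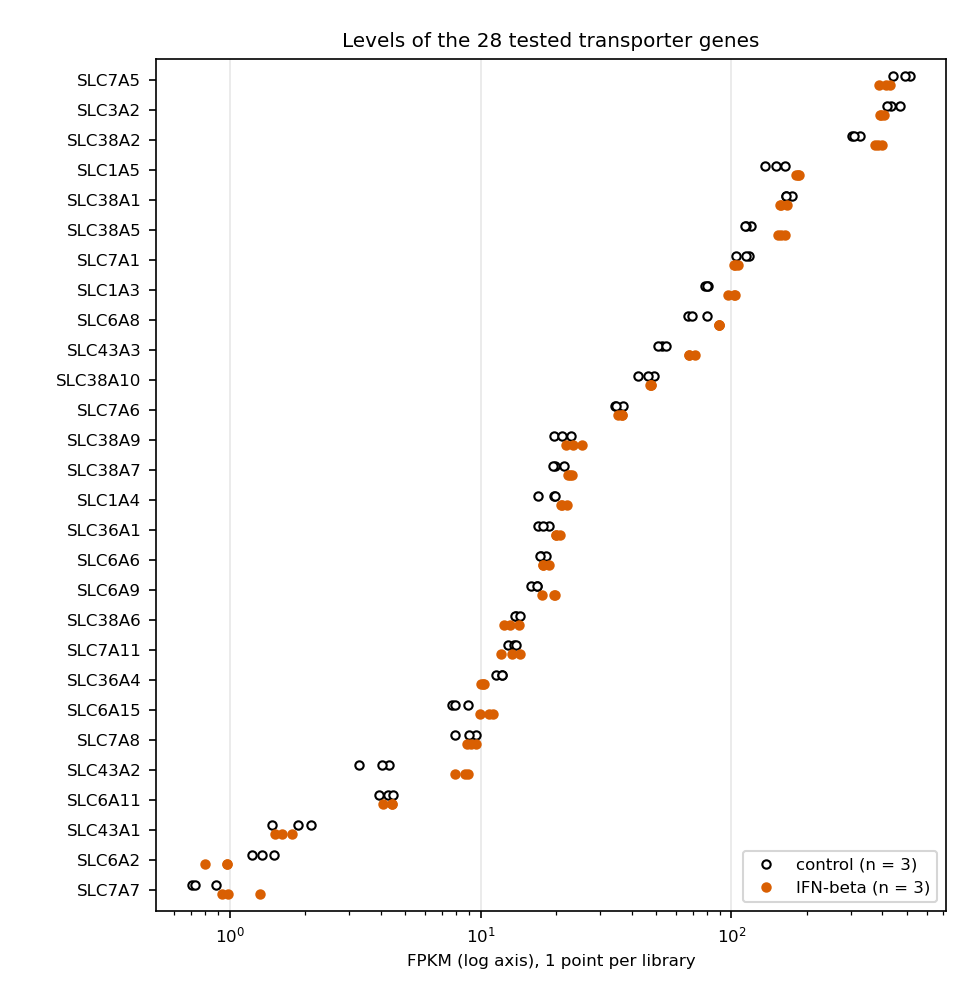
FPKM on a log axis for the 28 tested transporters, ordered by the mean level over all libraries, 1 point per library (white control, orange IFN-beta, n = 3 each). SLC7A5, SLC3A2 and SLC38A2 lead above 300 FPKM, and the orange points of SLC43A2 sit at 7.89 to 8.89 FPKM, clear of the white points at 3.27 to 4.31 FPKM.

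The sodium-coupled glutamine carriers of SLC38 included 3 risers and no faller among 7 tested. SLC38A2 (SNAT2, ENSG00000134294), a plasma membrane carrier that cells raise when amino acids run short, was at 304, 326 and 308 FPKM in control and 398, 383 and 374 FPKM with IFN-beta. All 3 treated libraries were above all 3 controls. The mean rose from 312.5 ± 11.9 to 385 ± 12.3 FPKM (SD, n = 3 each), a log2 change of 0.30 ± 0.04 (SE, adjusted p = 0.000539, limma).

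SLC38A5 (SNAT5, ENSG00000017483), which moves glutamine, histidine, asparagine and serine and can run in either direction, was at 120, 114 and 113 FPKM in control and 153, 157 and 163 FPKM with IFN-beta. Here too the groups were well apart, with a gap larger than the spread inside either group. Its log2 change was 0.44 ± 0.04 (SE, adjusted p = 4.95e-05, limma), a 1.36-fold difference of the means. SLC38A7, a lysosomal carrier of glutamine and asparagine, rose less, from 20.3 ± 1.12 to 22.7 ± 0.382 FPKM (log2 change 0.16 ± 0.05, adjusted p = 0.0383, limma). That call was lost without control 2 or 3 (0.119 and 0.0859) and without IFN-beta 1, 2 or 3 (0.0941, 0.0752 and 0.109). It was lost as well with no filter (0.0639), under quantile normalization (0.0956), without the trend (0.0631) and with the block (0.0666).

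SLC38A1 (SNAT1), the close relative of SLC38A2, did not pass. It was at 164, 174 and 164 FPKM in control and 166.5, 157 and 157 FPKM with IFN-beta, with overlapping groups and a log2 change of -0.07 (95% interval -0.16 to 0.03, adjusted p = 0.228, limma). The 2 genes are neighbours on chromosome 12, SLC38A1 at 46183063-46270017 and SLC38A2 at 46358188-46372773, 88.2 kb apart on the same strand. The ratio of SLC38A2 to SLC38A1 was 1.85, 1.87 and 1.87 in control and 2.39, 2.44 and 2.38 with IFN-beta. It was higher in 3 of 3 treated libraries (exact permutation test, two-sided, p = 0.1, the smallest possible, adjusted 0.14).

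SLC38A9, the lysosomal arginine carrier that signals to mTORC1, was at 21.3 ± 1.57 and 23.5 ± 1.70 FPKM with overlapping groups (log2 change 0.14, adjusted p = 0.134, limma). SLC38A10, at 46.0 ± 3.29 and 47.7 ± 0.165 FPKM, and SLC38A6, at 13.96 ± 0.372 and 13.3 ± 0.914 FPKM, did not pass either. The sign of SLC38A10 turned without control 3, to -0.003. SLC38A4, the next gene on chromosome 12, was at 0.176 to 0.393 FPKM in control and 0.285 to 0.304 FPKM with IFN-beta and was not tested.

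Among the SLC1 carriers, 2 of the 3 tested rose. SLC1A5 (ASCT2, ENSG00000105281), the glutamine and neutral amino acid exchanger, was at 164, 150.1 and 136 FPKM in control and 185, 185 and 181 FPKM with IFN-beta. The controls were spread out and the treated libraries close together, and the groups did not overlap. The mean rose from 149.9 ± 13.7 to 184 ± 2.52 FPKM (log2 change 0.30 ± 0.06, adjusted p = 0.0042, limma). Part of its exonic length overlaps other annotation on the opposite strand.

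SLC1A3 (EAAT1, GLAST), a high-affinity carrier of glutamate and aspartate, was at 78.5, 80.8 and 80.1 FPKM in control and 103, 102 and 96.8 FPKM with IFN-beta. All treated values were above all control values (log2 change 0.33 ± 0.04, adjusted p = 0.000183, limma). SLC1A4 (ASCT1), the exchanger of alanine, serine and cysteine, had separate groups at 18.8 ± 1.59 and 21.4 ± 0.656 FPKM and missed the threshold (log2 change 0.18 ± 0.07, adjusted p = 0.054, limma). It passed at a minimum mean of 2 FPKM (0.0424), after rescaling (0.0272), with the block (0.0492), with limma voom on recovered reads (0.0223) and without control 1 (0.0495). The remaining glutamate carriers SLC1A1, SLC1A2 and SLC1A6 were at or below 0.0473 FPKM, and SLC1A7 was at 0.

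SLC7A5 and SLC1A5, an exchanger that sends glutamine out for leucine and a carrier that brings glutamine in, moved in opposite directions. Since neither gene's groups overlapped, their ratio had to separate as well, and its test adds nothing to the calls. The ratio of SLC7A5 to SLC1A5 was 3.14, 3.27 and 3.22 in control and 2.24, 2.10 and 2.36 with IFN-beta, lower in 3 of 3 treated libraries (exact permutation test, two-sided, p = 0.1, the smallest possible, adjusted 0.14).

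**Figure D3:**
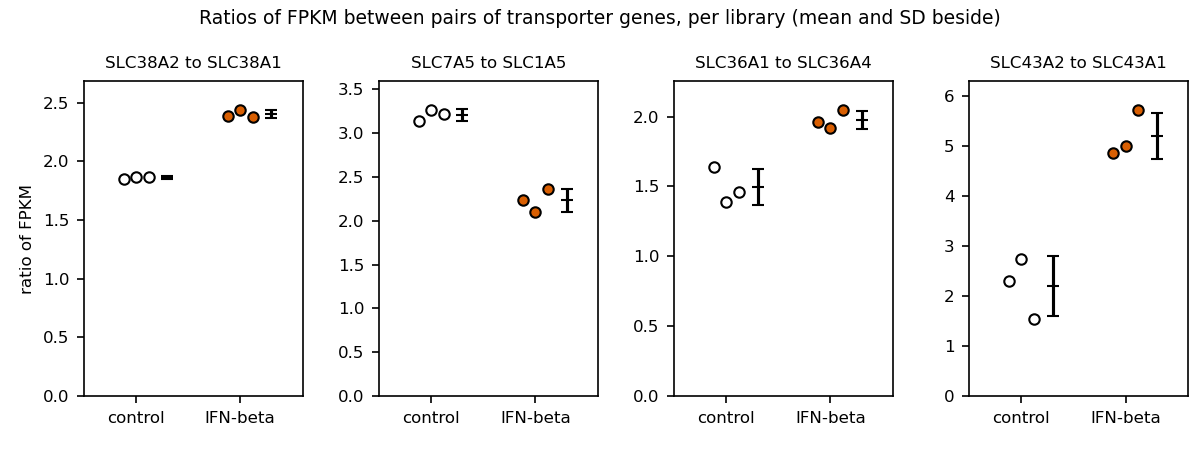
Ratio of FPKM between 4 pairs of transporter genes in each library (white control, orange IFN-beta, n = 3 each), with the mean and SD beside the points and axes from 0. The 4 panels were picked from 7 ratios, and the ratios to SLC3A2, whose groups overlap, are not shown. In the panels drawn the 2 groups do not overlap. The ratio of SLC7A5 to SLC1A5 is the 1 that is lower with IFN-beta, at 2.10 to 2.36 against 3.14 to 3.27.

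SLC43 held the largest change among the 28 tested members. SLC43A2 (LAT4, ENSG00000167703, chromosome 17, 1569268-1628886), a facilitated carrier of leucine, isoleucine, valine, methionine and phenylalanine, was at 4.31, 4.07 and 3.27 FPKM in control and 7.89, 8.89 and 8.65 FPKM with IFN-beta. The lowest treated library was well above the highest control library. The mean rose 2.18-fold, from 3.88 ± 0.545 to 8.48 ± 0.524 FPKM (SD, n = 3 each), a log2 change of 1.04 ± 0.10 with a 95% interval from 0.81 to 1.27 (adjusted p = 7.5e-05, limma). These levels rest on 151 to 473 reads a library.

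SLC43A3, the nucleobase carrier, was at 52.7, 51.0 and 54.8 FPKM in control and 67.5, 71.8 and 67.7 FPKM with IFN-beta, with separate groups (log2 change 0.38 ± 0.04, adjusted p = 0.000176, limma). Of its exonic length 29.9% overlaps AP000781.2 on the same strand, so reads there could belong to either. SLC43A1 (LAT3), which has the same kind of substrates as SLC43A2, was lower in level at 1.82 ± 0.316 and 1.64 ± 0.132 FPKM and did not pass (log2 change -0.11, 95% interval -0.41 to 0.19, adjusted p = 0.54, limma). It lies 57.0 kb from SLC43A3 on chromosome 11. The ratio of SLC43A2 to SLC43A1 was 2.31, 2.75 and 1.55 in control and 4.86, 5.01 and 5.73 with IFN-beta, and that of SLC43A3 to SLC43A1 was 29.5 ± 4.38 and 42.3 ± 2.26 (SD, n = 3 each). Both had separate groups (exact permutation p = 0.1 each, the smallest possible, adjusted 0.14).

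SLC6 held 19 genes, of which 6 were tested and 3 rose. SLC6A8, the creatine transporter, was at 80.2, 67.2 and 69.4 FPKM in control and 89.0, 89.5 and 89.3 FPKM with IFN-beta. The treated libraries were nearly equal and above all controls (log2 change 0.31 ± 0.06, adjusted p = 0.00387, limma). Its pseudogene copy SLC6A10P was at 0 in 5 libraries and at 0.0174 FPKM in IFN-beta 2, and the assignment of shared reads is not given in the sources used here.

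SLC6A15 (B0AT2), a carrier of branched-chain amino acids and proline, was at 7.70, 8.91 and 7.90 FPKM in control and 10.8, 11.2 and 9.99 FPKM with IFN-beta, with separate groups (log2 change 0.36 ± 0.08, adjusted p = 0.00445, limma). SLC6A9 (GlyT1), the glycine transporter, rose from 16.5 ± 0.468 to 19.0 ± 1.22 FPKM (log2 change 0.20 ± 0.06, adjusted p = 0.0258, limma). The SLC6A9 call was lost without control 2 (0.089), IFN-beta 2 (0.0959) or IFN-beta 3 (0.0878), with no filter (0.0535) and under quantile normalization (0.06).

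SLC6A2, the noradrenaline transporter, fell from 1.35, 1.5 and 1.23 FPKM to 0.974, 0.795 and 0.975 FPKM. The groups were separate, but the level is low, at 46 to 98 reads a library, and 17.9% of its exonic length overlaps AC136621.1 on the same strand. The log2 change was -0.39 ± 0.13 (adjusted p = 0.041, limma). Leaving out control 1 or 2 ended the call (0.0861 and 0.129), as did leaving out IFN-beta 1, 2 or 3 (0.0687, 0.12 and 0.0667). So did no filter (0.115), rescaling (0.0577) and the block (0.0867), and a minimum mean of 2 FPKM removed the gene. SLC6A6, the taurine transporter, at 17.6 ± 0.531 and 18.1 ± 0.617 FPKM, and SLC6A11, a GABA transporter, at 4.24 ± 0.273 and 4.32 ± 0.198 FPKM, did not pass. Under quantile normalization their log2 changes of 0.04 and 0.03 became -0.003 and -0.07, and that of SLC6A11 was -0.02 without control 1.

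The 2 tested proton-coupled carriers moved in opposite directions. SLC36A1 (PAT1), which exports glycine, alanine and proline from lysosomes, was at 18.8, 16.9 and 17.8 FPKM in control and 20.01, 19.9 and 20.7 FPKM with IFN-beta. It rose by 0.18 ± 0.05 on the log2 scale (adjusted p = 0.0257, limma), and the call was lost without control 2 (0.0964), without IFN-beta 1, 2 or 3 (0.0618, 0.0585 and 0.0844) and under quantile normalization (0.0717).

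SLC36A4 (PAT4), a carrier with high affinity for proline and tryptophan, was at 11.5, 12.2 and 12.2 FPKM in control and 10.2, 10.4 and 10.1 FPKM with IFN-beta. Its log2 change was -0.22 ± 0.06 (adjusted p = 0.0127, limma), and it missed the threshold without control 2, where the adjusted p rounds to 0.05. Both genes had separate groups, in opposite directions, so their ratio had to separate as well and its test adds nothing to these calls. The ratio of SLC36A1 to SLC36A4 was 1.64, 1.39 and 1.46 in control and 1.96, 1.92 and 2.05 with IFN-beta, higher in 3 of 3 treated libraries (exact permutation p = 0.1, the smallest possible, adjusted 0.14). SLC36A2 and SLC36A3 were at 0.

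Of the other 31 members, 19 had some signal under the 0.5 FPKM minimum and 12 were at 0 in all libraries. SLC6A16, an orphan carrier of the SLC6 family, was at 0 in the 3 control libraries and at 0.104, 0.267 and 0.257 FPKM with IFN-beta. This rests on 23 reads in all, 4, 9 and 10 a library. SLC6A16 was 7.5-fold higher when control is set at a floor of 3 reads over the group, with no allowance for error in the IFN-beta count. Fitted with no filter on level it passed (adjusted p = 0.0161, limma), the 1 of the 19 to do so. SLC6A14, a broad carrier of neutral and cationic amino acids, had 0 reads in control and 1, 5 and 2 with IFN-beta, 2.61-fold higher over the same floor, and did not pass with no filter (adjusted p = 0.246, limma). The other members with 0 reads in control and some with IFN-beta had 1 to 3 such reads, not above that floor.

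SLC6A20 (SIT1), a proline carrier, was at 0.311, 0.227 and 0.294 FPKM in control and 0.305, 0.632 and 0.431 FPKM with IFN-beta, with overlapping groups. SLC6A12 (BGT1), the betaine transporter, had 1, 3 and 1 reads in control and 0, 0 and 1 with IFN-beta, too few to compare. At such levels the recovered reads are a lower estimate, since a whole multiple would give the same FPKM. SLC6A7, a proline transporter, reached 0.135 FPKM in IFN-beta 1. The other 13 of the 19, SLC6A14 among them, stayed below 0.1 FPKM in each library.

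Members at 0 included SLC1A7, SLC6A3, SLC6A5, SLC6A18, SLC6A19, SLC7A3, SLC7A13, SLC7A14, SLC36A2, SLC36A3 and SLC38A8. Among them are the renal and intestinal carrier SLC6A19 and the dopamine transporter SLC6A3. A floor of 3 reads corresponds to 0.0981 to 0.116 FPKM for a gene of 1 kb at these depths, and to less for a longer gene. It covers counting error, and a count of 0 does not show that these genes were absent.

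Summed over the 59 members, transporter FPKM was 2333, 2266 and 2142 in control and 2359, 2318 and 2344 with IFN-beta. The groups overlapped, with control 1 above IFN-beta 2. As a share of all FPKM the members made up 0.313%, 0.304% and 0.284% in control and 0.326%, 0.321% and 0.322% with IFN-beta, with groups that did not overlap. The sum over all genes was itself lower with IFN-beta, at 722367.6 to 726929.3 FPKM against 744330.5 to 753154.7 FPKM in control. The higher share thus comes in part from a lower total. The 4 most abundant members of each library held 61.9% to 62.9% of the transporter FPKM in control and 58.3% to 59.2% with IFN-beta. These were not the same genes throughout. SLC7A5, SLC3A2 and SLC38A2 were joined by SLC38A1 in the control libraries and by SLC1A5 in the IFN-beta libraries.

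Other genes of amino acid handling were read from 7 lists. Beside their counts, 22.5% of all tested genes were called higher and 19.9% lower, with a median log2 change of 0.01. No list was tested as a set. The list of other amino acid carriers had 14 of 22 genes tested, with 6 higher and 1 lower and a median log2 change of 0.12. SLC15A3, a lysosomal carrier of histidine and small peptides, rose from 4.79 ± 0.843 to 90.9 ± 6.45 FPKM (log2 change 4.12, adjusted p = 1.04e-08, limma), far more than any of the 28 transporters. MFSD12, needed for cysteine import into lysosomes, rose by 0.85, SLC17A5, the lysosomal sialic acid exporter, by 0.28, and SLC66A1, the lysosomal exporter of cationic amino acids, by 0.29 (adjusted p = 0.0239). The SLC66A1 call was lost without control 1 or 3 or IFN-beta 3 (0.0548, 0.0617 and 0.085). SLC25A13, a mitochondrial aspartate and glutamate carrier, was the 1 that fell (-0.21), and SLC25A22 did not pass (0.02, with its sign turned under 4 alternatives).

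Of ATF4, the factor that raises amino acid carriers in the amino acid response, and its targets, 26 of 28 genes were tested, with 11 higher and 8 lower and a median of 0.08. ATF3 rose by 1.05, ATF5 by 0.72 and DDIT3 by 0.69, all factors of the stress response. NUPR1, another such factor, passed as well (0.59) and is among the 11, but it reached the 0.5 FPKM minimum only through the IFN-beta libraries. Its mean was 0.306 FPKM in control and 0.707 FPKM with IFN-beta, on 11 to 45 reads a library. Its call is therefore not independent of the filter. ATF4 itself was at 308 ± 6.35 and 322 ± 0.576 FPKM and did not pass (0.06, adjusted p = 0.159, limma), though it did after rescaling to the same sum (0.11, 0.0298). The serine synthesis enzymes PHGDH, PSAT1 and PSPH fell by 0.22, 0.24 and 0.17 on the log2 scale. They were chosen after their values were seen and were not the largest falls of the list, and the other fallers are not reported here. Without IFN-beta 2 or 3 the higher calls of this list were 7 and 6, without IFN-beta 2 the lower calls were 5, and NUPR1 was lost without control 3, IFN-beta 2 or IFN-beta 3 (0.0628, 0.0677 and 0.0507).

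Of the genes of amino acid sensing to mTORC1, 34 of 36 were tested, with 4 higher and 9 lower and a median of -0.05. LAMTOR4 and LAMTOR5, subunits of the lysosomal Ragulator scaffold, fell by 0.50 and 0.45 on the log2 scale, and ITFG2, of the KICSTOR complex, fell by 0.31. The risers included SESN2 (0.41), a leucine sensor, RPTOR (0.18), of mTORC1, and RHEB (0.15), its activator. SEC13 did not pass (-0.06). These 3 rises depended on single libraries, and the list's higher calls were at 2 without control 3 and at 1 without IFN-beta 2 or without IFN-beta 3. SESN2 was lost without control 2 or 3 or IFN-beta 2 or 3 (adjusted p, limma, 0.0542, 0.0535, 0.0554 and 0.0747). RPTOR was lost without control 2 or 3 or IFN-beta 2 or 3 (0.0751, 0.0671, 0.0938 and 0.0874), and RHEB without IFN-beta 2 (0.0532).

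For cystine, glutathione and NRF2, 15 of 16 genes were tested, with 7 higher and 5 lower and a median of 0.09. BACH1, a repressor at antioxidant response elements, rose by 0.80, and CD44, whose variant form holds SLC7A11 at the membrane, rose by 0.27. TXNRD1 (0.23), an NRF2 target, ACSL4 (0.19), AIFM2 (0.17), NFE2L2 (0.15), which encodes NRF2 itself, and GCLM (0.12), the partner subunit of GCLC, rose as well. The genes that fell were GSR (-0.27), which reduces glutathione, GCLC (-0.27) and GSS (-0.23), which make it, GPX4 (-0.19), which uses it, and NQO1 (-0.13), an NRF2 target. The NQO1 call was lost without IFN-beta 1 or 2 (0.0525 and 0.0725), and that of AIFM2 without IFN-beta 2 or 3 (0.0712 and 0.0518). GCLM passed narrowly (adjusted p = 0.0497, limma) and was lost under 7 other settings and without control 1, 2 or 3 (0.116, 0.0646 and 0.0651) or IFN-beta 1 or 2 (0.133 and 0.171). The list thus moved in both directions around SLC7A11, which did not pass.

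Of the enzymes of glutamine, glutamate and asparagine, 15 of 17 were tested, with 5 higher and 2 lower and a median of 0.04. GLS2, a glutaminase, rose by 0.49, CTPS1 by 0.42, GPT2 by 0.34, PPAT by 0.31 and GFPT1 by 0.19. CTPS1, PPAT and GFPT1 use the amide of glutamine for nucleotides and hexosamines. The transaminases GOT1 (-0.14) and GOT2 (-0.11) fell, and GLUD1 did not pass (0.04). Without control 2, IFN-beta 1 or IFN-beta 3 the list had 0 lower calls, without control 1 or IFN-beta 2 it had 1, and without IFN-beta 1 it had 3 higher calls. In those fits the adjusted p reached 0.0972 for GOT1 and 0.0881 for GOT2 (limma). GLS2 was lost without control 2, IFN-beta 1 or IFN-beta 3 (0.0574, 0.0574 and 0.0643), and GFPT1 without control 1, IFN-beta 1 or IFN-beta 2 (0.0677, 0.0898 and 0.0768).

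Of the enzymes of tryptophan, arginine and branched-chain amino acids, 15 of 21 were tested, with 4 higher and 5 lower and a median of -0.11. The 4 risers act on tryptophan or in the kynurenine pathway that breaks it down. IDO1, which opens the kynurenine pathway, rose from 0.423 ± 0.0646 to 12.7 ± 1.25 FPKM (log2 change 3.84, adjusted p = 1.4e-08, limma), and WARS1, the tryptophanyl-tRNA synthetase, from 169 ± 9.04 to 623 ± 40.1 FPKM (1.87, adjusted p = 2.42e-08). In control IDO1 was under the 0.5 FPKM minimum, which it reached through the IFN-beta libraries. KMO and KYNU, further along the kynurenine pathway, rose by 0.60 and 0.59. The branched-chain enzymes BCKDHB (-0.60), BCAT1 (-0.53), BCAT2 (-0.32) and DBT (-0.23) fell, as did ASS1 (-0.32), of arginine synthesis. The DBT call was lost without control 2 (0.0539), and ODC1 did not pass (0.06).

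The last list held proteins that partner with transporters or set their turnover, 12 of 14 tested, with 6 higher and 2 lower and a median of 0.16. CLTRN (collectrin), which brings SLC6 amino acid carriers to the membrane in kidney, rose from 1.16 ± 0.181 to 8.88 ± 2.08 FPKM (log2 change 2.47, adjusted p = 6.93e-06, limma), while its renal client SLC6A19 was at 0. TXNIP and ARRDC3, arrestins that act on nutrient transporters, rose by 1.79 and 0.52, and SGK1, a kinase that raises transporters at the surface, rose by 0.30. Of the ubiquitin ligases in the list, NEDD4L (0.28) and NEDD4 (0.18) rose. RNF5 (-0.22), a ligase known to act on SLC1A5 and SLC38A2, and LAPTM4B (-0.16), which brings SLC7A5 and SLC3A2 to lysosomes, fell. BSG did not pass (0.03, and -0.008 without control 3).

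**Figure D4:**
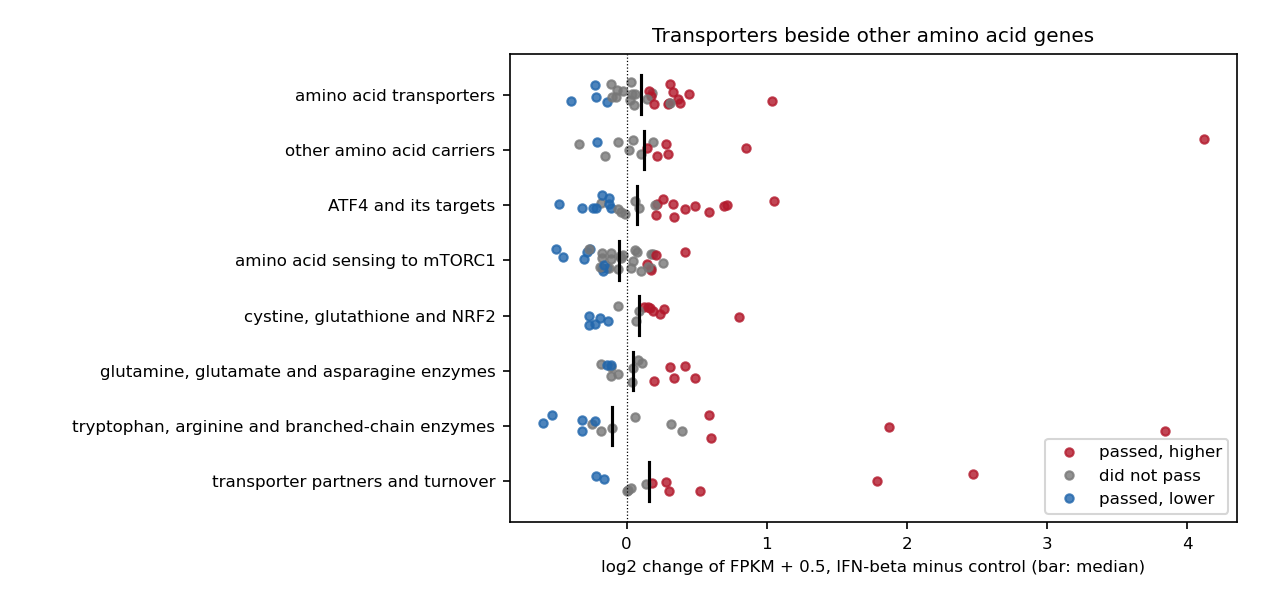
Log2 change of FPKM + 0.5, IFN-beta minus control, for each tested gene of the amino acid transporters and of the 7 other lists, 1 point per gene (red passed and higher, blue passed and lower, grey did not pass), with a bar at each median. The transporters' median is 0.10 and their range ends at 1.04, while SLC15A3 at 4.12 and IDO1 at 3.84 lie far to the right.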

How the data were processed

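RNA of 6 HaCaT libraries, 3 with IFN-beta and 3 control, was sequenced, and the titles of the samples gave each library's group and replicate number. The authors deposited 1 table of FPKM values. Per the labels' protocols, RNA was isolated by RNeasy in one place and by TRIzol in another, and CLC Genomics Workbench 11.0.1 is listed without its step. GRCm38 and mm10, the builds per the submitters' processing notes, are of mouse, but all 60671 identifiers are human. Coordinates of genes are those of the table, with build GRCh38 inferred, since 44908 of 58453 shared identifiers have the same coordinates in GENCODE release 29. Aligner, counter and strand setting: not given in the sources used here.

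The values, as log2(FPKM + 0.5), entered a fit by limma 3.58.1 under R 4.3.3 (two-sided, lmFit, eBayes with trend) for 15163 genes, those at a mean of 0.5 FPKM or more, and p-values were adjusted by Benjamini-Hochberg over all of them at 0.05. On this scale the changes of low genes are understated. Whole reads were recovered from the FPKM steps for 100% of the 30507 genes above 0, within 0.01 reads, and limma voom on them called 6874 genes against 6431. The GENCODE 29 length gave whole reads for 33.41% of these genes and for 0 members. The rest took the smallest length that made all values whole, so the 100% is a weak check. Where reads are few, the recovered number may be a lower estimate. Replicates differed by more than sampling noise (chi-square per gene 3.01 to 10.2). Ratios were compared with an exact permutation test. Reads are not independent molecules. The fit was tested on simulated data.

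Alternative settings used a pseudocount of 0.1 or 1, no filter, a minimum of 2 FPKM, median-of-ratios size factors, quantile normalization, rescaling to the same sum (TPM), robust eBayes, eBayes with no trend, a replicate block, voom, and each library left out.

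Named are the 4 markers SLC7A11, SLC7A5, SLC3A2 and SLC1A5, all members that passed, the 6 most abundant that did not, and of each list up to 4 genes that passed and 1 that did not. The remaining tested members, lists' genes in counts of 5 or fewer, the other called genes of the glutathione and partner lists, PHGDH, PSAT1 and PSPH were added after their values were seen. Some genes covered by these rules are not reported here. The members and lists were chosen with earlier results of these data known. Promoters are RefSeq's (GRCh38.p14), 250 bases before the start, held for 44 of the 59 members. Python 3.11.15 with matplotlib 3.10.9, numpy 2.4.6 and pandas 2.3.3 made the tables and figures.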

Additional observations from a re-analysis of the deposited data

How the results depend on the processing

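Rises among the members numbered 11, and 8 to 12 under the 17 alternatives. Falls numbered 4, but 1 with no filter, 2 after rescaling to the same sum, 2 without the trend, 2 with the replicate block, and 0 (without control 2) to 5 (without control 3) when single libraries were left out; the cause was not tested. Libraries with the same replicate number did not deviate together (r = -0.05, -0.10 and -0.06, none the best match), so the numbers were not taken to pair them. The block gave 5817 calls over all genes against 6431, ended the calls of SLC3A2, SLC6A2 and SLC38A7 and added SLC1A4. Log2 changes that turned sign, none of them called, were, under quantile normalization, SLC6A11 (-0.069), SLC6A6 (-0.003), SLC7A6 (-0.010), SLC7A8 (-0.005) and SLC25A22 (-0.028), and after rescaling SLC7A11 (0.022). With 1 library left out the ranges that crossed 0 were -0.003 to 0.098 for SLC38A10, -0.018 to 0.065 for SLC6A11, -0.082 to 0.044 for SLC7A11, -0.014 to 0.114 for SLC7A8, -0.019 to 0.087 for SLC25A22 and -0.008 to 0.073 for BSG. Counts over the other lists moved as follows. Lower calls among other carriers were 3 under quantile normalization, 2 with size factors, 2 with voom and 1 to 2 with a library left out. For ATF4 and its targets lower calls were 5 after rescaling, 5 without the trend and 5 to 8 with a library left out, when higher calls were 6 to 12. For mTORC1 sensing higher calls were 2 under quantile normalization, 2 with the block and 1 to 5 with a library left out. For glutamine enzymes higher calls were 3 under quantile normalization and 3 to 5 with a library left out, and lower calls were 0 after rescaling, 1 under quantile normalization, 0 without the trend, 1 with the block and 0 to 3 with a library left out. Of 60 other named genes 44 had the same call under all alternatives. Rescaling moved the median of all genes by 0.04 and quantile normalization by -0.06. Among the members, depth limits SLC6A2, SLC7A7 and SLC43A1, at under 100 reads a library, and the 19 below the minimum level.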
